A study of Mus musculus with 2 samples.

Results

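The genes of the VEGF ligands (Vegfa, Vegfb, Vegfc and Pgf), the VEGF receptors (Flt1, Kdr and Flt4), the angiopoietins (Angpt1 and Angpt2) and the angiopoietin receptor Tek (Tie2) were followed in primary mouse chondrocytes. These 10 of the 21983 genes in the count table were chosen by symbol, with earlier results of the same libraries known, so their values are a description and none was tested. All 10 were in the table, and 9 had at least 20 counts summed over both libraries. Recombinant mouse Sparcl1 protein, a secreted matricellular protein, was added at 50 ng/ml to wild-type (WT) cells for 3 days (1 library), and PBS was given as control to WT cells for 3 days (1 library). RNA was sequenced in bulk, and the labels give no age, strain or number of animals. The Sparcl1 library held 26871933 gene counts and the PBS library 29858851. With 1 library in each group, the intervals given are exact 95% intervals for counting error of reads, which treat reads as independent molecules. They compare the libraries and say nothing of the spread between cultures.

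Vascular endothelial growth factors bind receptor tyrosine kinases on endothelial cells and drive the growth of blood vessels. Vegfa acts mainly through Kdr, while Flt1 binds Vegfa, Vegfb and Pgf and often works as a decoy. Flt4 is the receptor for Vegfc and Vegfd and is best known from lymphatic vessels. Angiopoietins bind Tie2, where Angpt1 is an agonist that stabilises vessels and Angpt2 can oppose it. Healthy cartilage has no vessels, and hypertrophic chondrocytes are known to secrete Vegfa, which brings vessels into the growth plate as cartilage turns to bone.

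Flt4, the receptor for lymphatic growth factors, stood 2.15-fold higher in the Sparcl1 library, and it alone of the 9 genes passed the rule of size described below. Angpt1, the Tie2 agonist, had a ratio of 0.695. In bulk RNA, fewer cells of a type and less RNA per cell cannot be told apart. The 2 most abundant ligand genes, Vegfa and Vegfb, had ratios of 1.16 and 1.27. Transcripts of the receptors Flt1, Kdr and Tek were rare in both libraries, while the ligands Vegfa and Vegfb were more abundant than most genes.

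A gene counted as higher or lower by the rule of size with at least 20 summed counts, a ratio of at least 2-fold and a counting interval that excluded a ratio of 1. Flt4 was the 1 higher gene of 9, and 0 of 9 were lower. Over all 13317 genes with that many counts, 0.954% were higher and 0.946% were lower. At a size of 1.5-fold it was again 1 higher and 0 lower of 9, against 2.32% and 2.35% of all genes. At 3-fold none of the 9 was higher or lower, against 0.33% and 0.27%. With at least 100 summed counts, 6 of the 10 genes entered, Flt4 was higher and 0 were lower, against 0.168% and 0.319% of 11910 genes. The counting interval lay above a ratio of 1 for Flt4, Vegfa and Vegfb and below it for Angpt1. Intervals of that kind were common at this depth, above for 20.1% and below for 21.6% of all genes, so they do not set these members apart. The median log2 ratio, Sparcl1 over PBS, was 0.09 over the 9 genes and -0.0019 over all 13317 genes, of which 6608 had ratios above 1 and 6709 below. Over the 6 members with at least 100 summed counts the median was 0.23. Tek, with 16 summed counts, was the member just under the limit of 20, and Pgf, with 40, the one just above it.

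**Figure D1:**
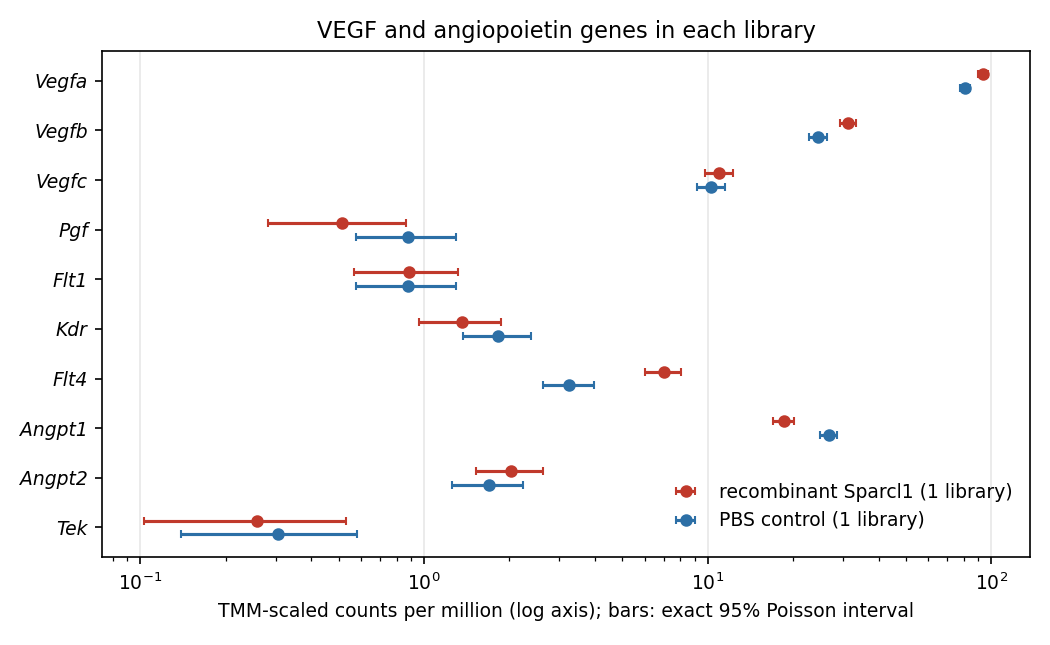
TMM-scaled level in CPM (read counts brought to the same library size; log axis) of the 10 genes in the recombinant Sparcl1 library (red) and the PBS control library (blue), 1 library each, with exact 95% Poisson intervals for counting error. The intervals of Flt4, Angpt1, Vegfa and Vegfb do not overlap between the libraries, and Tek, Flt1, Kdr and Pgf lie below 2 CPM in both.

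The promoters of the 2 most abundant ligand genes and of the VEGF receptor genes are shown. RefSeq windows of 250 bases before to 50 after the start (GRCm38.p6) were held for 8 of the 10 genes, and not for Angpt1 and Angpt2. Capitals mark the hypoxia core ACGTG or GCGTG and the GC box GGGCGG, searched on both strands, where neighbouring matches may overlap. The 250 bases before the start are given for Vegfa (chr17:46032378-46032627, minus strand), Vegfb (chr19:6987652-6987901, minus strand), Flt1 (chr5:147726012-147726261, minus strand) and Kdr (chr5:75978456-75978705, minus strand). For Flt4 (plus strand, chromosome 11) only the last 30 bases before the RefSeq start are printed, since GENCODE starts the gene 416 bases farther upstream.
Vegfa: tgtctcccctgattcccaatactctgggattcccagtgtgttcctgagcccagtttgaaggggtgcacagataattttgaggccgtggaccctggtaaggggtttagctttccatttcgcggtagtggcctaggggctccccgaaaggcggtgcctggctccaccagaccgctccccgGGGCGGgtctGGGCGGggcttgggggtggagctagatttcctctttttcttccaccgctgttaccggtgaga
Vegfb: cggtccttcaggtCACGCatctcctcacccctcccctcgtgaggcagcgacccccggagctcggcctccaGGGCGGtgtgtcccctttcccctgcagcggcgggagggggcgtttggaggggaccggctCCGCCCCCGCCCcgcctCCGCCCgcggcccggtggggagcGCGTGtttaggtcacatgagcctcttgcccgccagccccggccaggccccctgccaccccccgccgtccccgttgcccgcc
Flt1: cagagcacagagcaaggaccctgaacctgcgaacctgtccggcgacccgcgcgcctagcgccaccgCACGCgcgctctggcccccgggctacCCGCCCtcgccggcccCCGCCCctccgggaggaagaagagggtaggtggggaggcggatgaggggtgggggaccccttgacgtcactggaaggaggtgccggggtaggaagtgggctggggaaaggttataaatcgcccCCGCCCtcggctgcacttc
Kdr: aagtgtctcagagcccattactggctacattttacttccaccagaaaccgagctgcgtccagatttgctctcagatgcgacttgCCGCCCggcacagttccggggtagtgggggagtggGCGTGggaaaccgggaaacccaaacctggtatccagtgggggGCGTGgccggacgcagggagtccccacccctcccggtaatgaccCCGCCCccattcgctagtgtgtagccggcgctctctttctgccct
Flt4: cgcctcggctCCGCCCccgggccgctgacc

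In the 250 bases before its start Flt4 had 3 GC boxes and no hypoxia core, Kdr 2 GC boxes and 2 hypoxia cores, and Flt1 3 GC boxes and 1 hypoxia core. Vegfb had 4 GC boxes and 2 hypoxia cores, and the Vegfa window shown had 2 GC boxes and no hypoxia core. A second RefSeq start of Vegfa, 7206 bases inside the gene, had 2 hypoxia cores and 1 GC box in its window. Of the 10 windows of the 8 genes, 5 held a hypoxia core and 8 a GC box. The RefSeq starts of Pgf lie 477 and 1808 bases inside the gene as GENCODE gives it. With these, Flt4 and the second Vegfa start, the tally is of RefSeq windows and not of windows at GENCODE gene starts. Of all 32851 windows in the table, 43.8% held a hypoxia core and 35.7% a GC box. These are matches of letters, not binding sites, and sequence farther from the starts was not searched. A window without a hypoxia core therefore does not show that a gene lacks one.

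Vegfa, the main growth factor for blood vessels, had 2536 counts in the Sparcl1 library and 2380 in the PBS library. Scaled to a common library size with TMM factors (trimmed mean of M-values), this was 93.2 CPM in the Sparcl1 library and 80.7 in the PBS library. The log2 ratio was 0.21 (0.13 to 0.29), and 2197 of the 13317 genes had a higher one. The gene lies on chromosome 17 at 46016993 to 46032369, minus strand, of the GRCm38 (mm10) assembly. GENCODE M21 lists 13 transcripts for it, and gene counts cannot tell its splice forms apart.

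Vegfb, a ligand of Flt1, had 849 counts in the Sparcl1 library and 724 in the PBS library, which was 31.2 and 24.5 CPM. Its log2 ratio of 0.35 (0.20 to 0.49) was the highest among the 4 ligand genes followed here. It did not differ from that of Vegfa beyond counting error: the difference of the 2 log2 ratios, Vegfb minus Vegfa, was 0.14 (-0.03 to 0.30). Vegfb lies on chromosome 19 at 6982473 to 6987651, minus strand, 260 bases from the chaperone gene Dnajc4, which had 555 counts in the Sparcl1 library and 534 in the PBS library.

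Vegfc, a ligand of Flt4, had 298 counts in the Sparcl1 library and 304 in the PBS library (chromosome 8, 54077606 to 54187096, plus strand). Its log2 ratio was 0.09 (-0.15 to 0.32), so the libraries could not be told apart at this depth. Pgf, the placental growth factor gene, had 14 counts in the Sparcl1 library and 26 in the PBS library (chromosome 12, 85166635 to 85177790, minus strand). The log2 ratio of -0.78 had an interval of -1.83 to 0.21, wide enough to hold both equal levels and a difference of over 3-fold.

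Vegfd, the second ligand of Flt4 and not one of the 10 genes, had 781 counts in the Sparcl1 library and 789 in the PBS library, a log2 ratio of 0.10 (-0.04 to 0.25). The counting intervals of both ligands of Flt4 included a ratio of 1, and that of Flt4 did not. The log2 ratio of Flt4 exceeded that of Vegfc by 1.01 (0.58 to 1.45) and that of Vegfd by 1.00 (0.61 to 1.40). These differences do not depend on the scaling of the libraries or on gene length. The pairs were chosen after their counts had been seen, so the differences are a description.

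Flt4 had 190 counts in the Sparcl1 library and 96 in the PBS library, or 6.99 and 3.25 CPM. The log2 ratio was 1.10 (0.74 to 1.47), and 122 of the 13317 genes had a higher one. Among the 977 genes with 200 to 400 summed counts, 5 had a log2 ratio at least as high, Flt4 included, and 4 had one as far below 0. The central 95% of log2 ratios in that range ran from -0.66 to 0.73. This range of counts was chosen after the counts had been seen, and Flt4 was singled out by its ratio. Its place above that spread is therefore a description and no further support. The gene lies on chromosome 11 at 49609263 to 49652739, plus strand, with 2 annotated transcripts and no overlapping gene. The nearest protein-coding genes in the table, Olfr1380 and Scgb3a1, had 0 counts in both libraries.

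Flt1 had 24 counts in the Sparcl1 library and 26 in the PBS library (chromosome 5, 147561604 to 147726011, minus strand). Its log2 ratio was 0.0017 (-0.86 to 0.86), and soluble and membrane forms cannot be told apart in gene counts. Kdr, the main signalling receptor for Vegfa, had 37 counts in the Sparcl1 library and 54 in the PBS library (chromosome 5, 75932827 to 75978458, minus strand). Its log2 ratio was -0.43 (-1.07 to 0.20). As a description of the same counts, the log2 ratio of Flt4 exceeded that of Kdr by 1.53 (0.79 to 2.27) and that of Flt1 by 1.10 (0.16 to 2.04). Kdr minus Flt1 was -0.43 (-1.51 to 0.66), an interval that includes no difference.

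**Figure D2:**
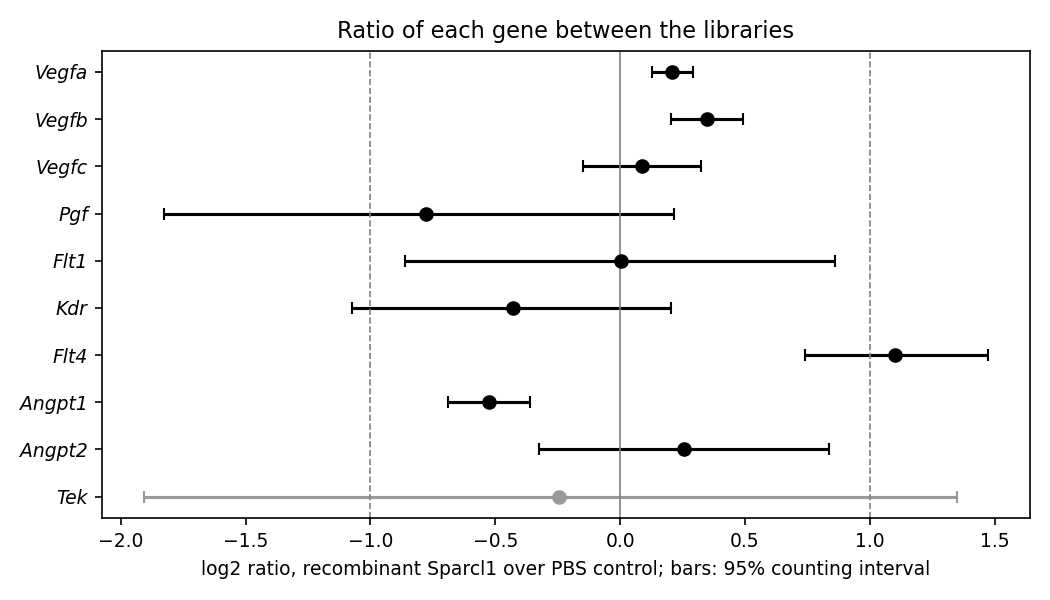
Log2 ratio of each gene, recombinant Sparcl1 over PBS control, with 95% counting intervals; dashed lines mark 2-fold, and the grey point (Tek) has fewer than 20 summed counts. Flt4 at 1.10 is the 1 point beyond a dashed line, Angpt1 lies at -0.53, and the interval of Pgf crosses both 0 and -1.

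Angpt1 had 504 counts in the Sparcl1 library and 787 in the PBS library, or 18.5 and 26.7 CPM. The log2 ratio was -0.53 (-0.69 to -0.36), and 565 of the 13317 genes had a lower one. Angpt1 lies on chromosome 15 at 42424723 to 42676977, minus strand. The antisense gene Gm17473, which was not in the table, shares 737 exon bases with it on the opposite strand, and reads of both cannot be separated if counting ignored strand.

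Angpt2 had 55 counts in the Sparcl1 library and 50 in the PBS library, a log2 ratio of 0.25 (-0.32 to 0.84). It lies on chromosome 8 at 18690263 to 18741562, minus strand, inside the region of Mcph1 on the other strand, with which it shares 0 exon bases. Mcph1 had 414 counts in the Sparcl1 library and 445 in the PBS library. Neither angiopoietin passed the rule of size. The log2 ratio of Angpt1 minus that of Angpt2 was -0.78 (-1.39 to -0.18), and that of Vegfa minus that of Angpt1 was 0.73 (0.55 to 0.92). Both pairs were chosen after their counts had been seen, with the interval of Angpt1 already below a ratio of 1. These differences are therefore a description and do not cover the spread between cultures.

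Tek, the receptor of the angiopoietins, had 7 counts in the Sparcl1 library and 9 in the PBS library (chromosome 4, 94739289 to 94874976, plus strand). At these counts the interval of the log2 ratio ran from -1.91 to 1.35, so no difference was detectable at this depth.

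**Figure D3:**
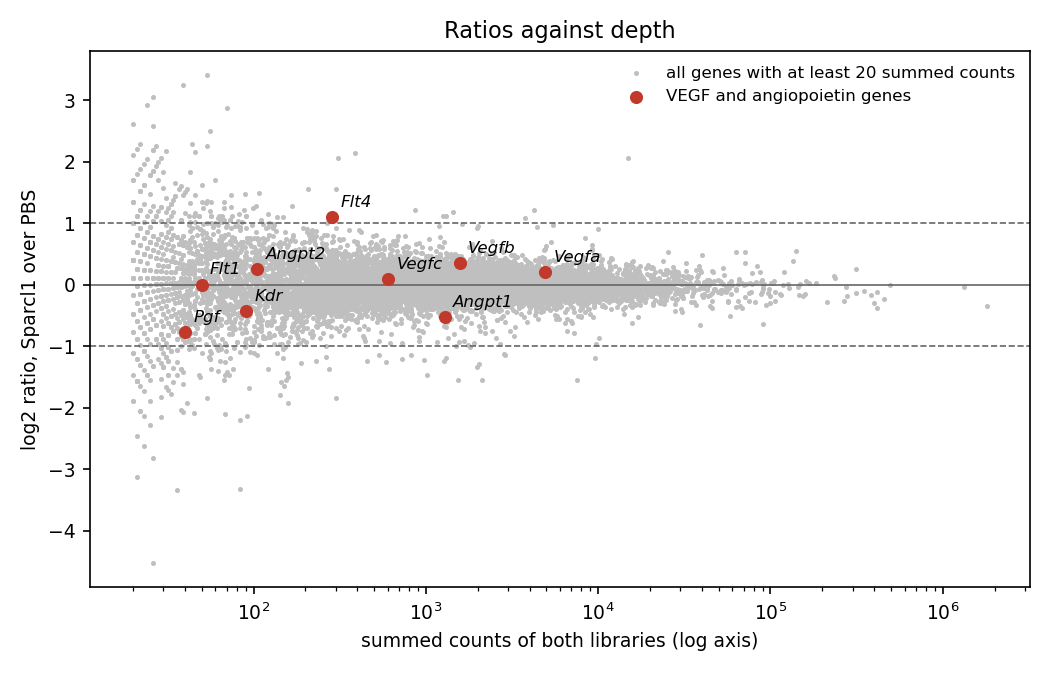
Log2 ratio, recombinant Sparcl1 over PBS control, against summed counts (log axis) for all 13317 genes with at least 20 summed counts (grey) and the 9 VEGF and angiopoietin genes among them (red); dashed lines mark 2-fold. Flt4, at 286 summed counts, lies above the central 95% of genes with 200 to 400 summed counts (-0.66 to 0.73), and Angpt1, at 1291, lies at -0.53. That range was chosen after the counts had been seen, and Flt4 was singled out by its ratio.

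Levels of different genes were compared as CPM per kilobase of annotated exon. Vegfa stood at 21.8 per kilobase in the Sparcl1 library and 18.8 in the PBS library, and Vegfb at 19.4 and 15.3. By the mean of both libraries, 13.99% of the 16019 genes with a count and a length had a higher level than Vegfa, and 16.5% a higher level than Vegfb. Angpt1 and Vegfc came next, and their order differed between the libraries. Angpt1 had 3.56 per kilobase in the Sparcl1 library and 5.13 in the PBS library, whereas Vegfc had 4.47 and 4.21. Their counting intervals were apart in both libraries. With the longest transcript as length, Angpt1 was at 4.35 (3.98 to 4.75) in the Sparcl1 library and Vegfc at 4.47 (3.98 to 5.01), so there the intervals overlapped and the reversal was not resolved.

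Flt4 and Angpt2 followed. Flt4 stood at 0.849 per kilobase in the Sparcl1 library and 0.395 in the PBS library, and Angpt2 at 0.548 and 0.459. Their intervals were apart in the Sparcl1 library and overlapped in the PBS library. Pgf and Kdr, next in order, could not be told apart in either library, nor could Flt1 and Tek at the bottom. Angpt2 and Pgf overlapped in the PBS library alone, and the intervals of the other neighbours in the order were apart in both libraries. Flt1 had 0.0653 per kilobase in both libraries. With the longest transcript, the mean of both libraries was 0.128 for Flt1 and 0.269 for Kdr, against 0.0653 and 0.177 with all exons, and the intervals of Kdr and Flt1 then overlapped in the Sparcl1 library. The share of genes with a higher level was 78.6% for Pgf, 80.4% for Kdr, 85.9% for Flt1 and 86.5% for Tek. The order of the 10 genes by the mean of both libraries was the same with either length, but the intervals of Vegfa and Vegfb also overlapped in the Sparcl1 library with the longest transcript.

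Within the family of VEGF receptors, Flt4 made up 79.7% of the summed level per kilobase in the Sparcl1 library and 59.6% in the PBS library. Kdr made up 14.2% and 30.6%, and Flt1 6.14% and 9.84%. The shares of a family are bound to each other, so a higher Flt4 level alone lowers those of Kdr and Flt1. The log2 ratio of Kdr itself was -0.43 (-1.07 to 0.20) and that of Flt1 0.0017. With the longest transcript as length, the share of Flt4 was 75.7% in the Sparcl1 library and 54.4% in the PBS library. The summed receptor level was 1.06 in the Sparcl1 library and 0.663 in the PBS library, far below the summed level of the ligands with Vegfd, 57.8 and 49.7. Among the ligands, Vegfa held 37.7% in the Sparcl1 library and 37.9% in the PBS library, Vegfb 33.7% and 30.7%, and Vegfd 20.6% and 22.3%.

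Angpt4, a further ligand of Tie2 that is not one of the 10 genes, was the most abundant angiopoietin gene. It had 1578 counts in the Sparcl1 library and 1848 in the PBS library, which was 24.8 and 26.8 CPM per kilobase. This was above each of the 10 genes. With the longest transcript as length, Vegfa stood at 27.0 (25.98 to 28.09) in the Sparcl1 library and 23.4 in the PBS library. Angpt4 was then at 24.8 (23.64 to 26.10) in the Sparcl1 library, so there the intervals overlapped and the order was not resolved. The log2 ratio of Angpt4 was -0.11 (-0.21 to -0.01). As a description of a pair chosen after its counts had been seen, it exceeded that of Angpt1 by 0.42 (0.22 to 0.61). Angpt4 made up 85.8% of the summed angiopoietin level in the Sparcl1 library and 82.8% in the PBS library, and Angpt1 12.3% and 15.8%.

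**Figure D4:**
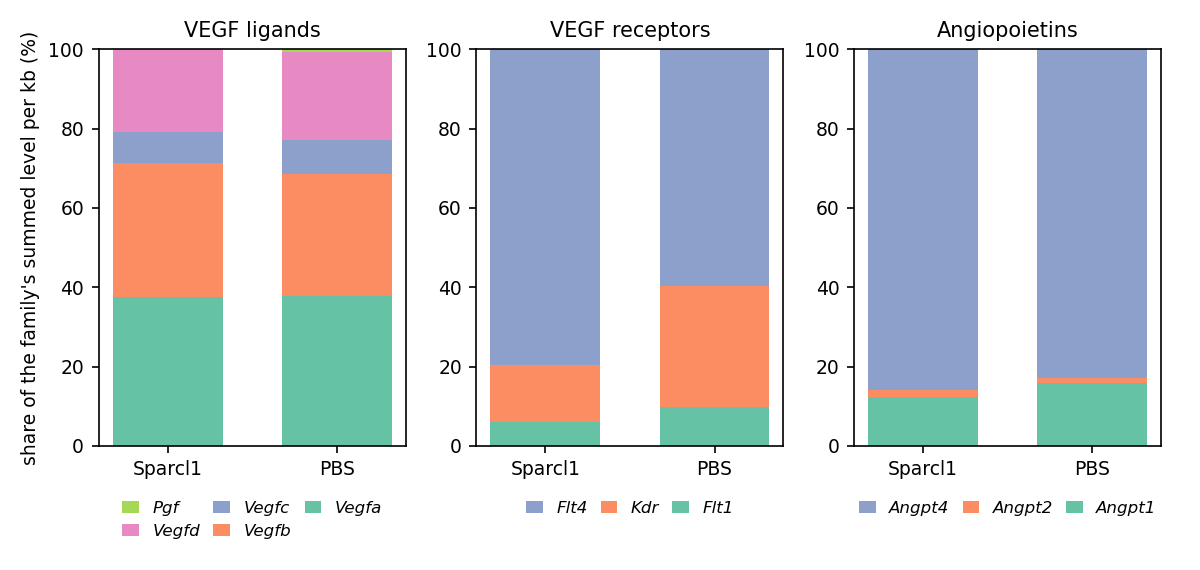
Share of each gene in the summed level of its family (TMM-scaled CPM per kilobase of exon, in percent) in the recombinant Sparcl1 library (left bar) and the PBS control library (right bar), 1 library each and no error bars. The share of Flt4 among the receptors is 79.7% in the Sparcl1 library and 59.6% in the PBS library, while Vegfa holds 37.7% and 37.9% of the ligand level and Angpt4 85.8% and 82.8% of the angiopoietin level.

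Of the partner genes of the pathway, 0 of the 4 with at least 20 summed counts passed the rule of size, with a median log2 ratio of -0.07. The co-receptor gene Nrp2 had 6379 counts in the Sparcl1 library and 7090 in the PBS library (log2 ratio -0.04), and Nrp1 had 3534 and 4101 (-0.10). Both were far more abundant than Flt1, Kdr and Flt4, at 19.8 CPM per kilobase for Nrp2 and 13.3 for Nrp1 in the Sparcl1 library. Tie1, the orphan partner of Tie2, had 0 counts in the Sparcl1 library and 1 in the PBS library, and Ptprb, the phosphatase that restrains Tie2, had 2 and 0. A count of 0 allows up to 0.110 CPM in the Sparcl1 library and 0.102 in the PBS library, taken as 3 counts.

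Among signal carriers behind these receptors, 0 of 13 passed the rule, and the median log2 ratio was 0.0080. The adaptor gene Shb was at 0.30 and the adaptor gene Nck1 at -0.18, the ends of this list. The abundant scaffold gene Iqgap1 was at -0.07 and the phosphatase gene Ptpn11 at 0.01.

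Secreted proteins that restrain vessels ranged widely in level, and Thbs1 alone gave 27967 of their summed 37223 CPM in the Sparcl1 library and 35497 of 45545 in the PBS library. Thbs1, which encodes the angiogenesis inhibitor thrombospondin 1, had 760679 counts in the Sparcl1 library and 1047168 in the PBS library, a log2 ratio of -0.34 (-0.35 to -0.34). Thbs2 was at -0.35, Timp3, which blocks binding of Vegfa to Kdr, at -0.10, and Col18a1, the source of endostatin, at 0.04. Vash1, which encodes the inhibitor vasohibin, had 27 counts in the Sparcl1 library and 31 in the PBS library. Among the 9 genes of this list 8 ratios were below 1, against 6709 of all 13317, the median log2 ratio was -0.10, and 0 genes passed the rule. Chondromodulin, encoded by Cnmd, keeps cartilage free of vessels and stood at -0.26. Cnmd and Vash1 were named after their values were seen.

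The oxygen-sensing pathway, which sets Vegfa transcription in low oxygen, had 0 of 8 genes past the rule and a median log2 ratio of -0.03. Hif1a, the oxygen-regulated factor, had 13930 counts in the Sparcl1 library and 16074 in the PBS library (log2 ratio -0.09). The prolyl hydroxylase genes Egln1 and Egln2, whose products mark it for breakdown, were at 0.18 and 0.23, and Vhl, which then removes it, was at -0.17. Of 16 other targets of hypoxia 13 had ratios above 1, against 6608 of all 13317 genes, and none passed the rule, with a median log2 ratio of 0.16; Vegfa at 0.21 lay within their range. Higd1a was at 0.39 and the lactate dehydrogenase gene Ldha at 0.20, while the collagen hydroxylase gene P4ha1 was at -0.08 and Ndrg1 at -0.24.

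Other growth factors of vessels held 2 genes that were higher by the rule of size among 12, and 0 were lower, against 0.954% and 0.946% of all genes. The median log2 ratio was -0.05, and -0.11 with at least 100 summed counts. Angptl4, an angiopoietin-like inhibitor of lipoprotein lipase that does not bind Tie2, had 971 counts in the Sparcl1 library and 466 in the PBS library, a log2 ratio of 1.18 (1.02 to 1.34). Fgf1, a fibroblast growth factor, had 21 and 6 counts (1.92, 0.57 to 3.52), so its size is poorly fixed. Among 9 endothelial genes that VEGF is known to induce, 6 had at least 20 summed counts. Of these 1 was higher and 1 was lower, against the same 0.954% and 0.946%, with a median log2 ratio of -0.21. The others were near 0: Dll4 had 4 counts in the Sparcl1 library and 7 in the PBS library, Aplnr 3 and 5, and Nos3 6 and 3. Egr3, an immediate early factor, had 164 counts in the Sparcl1 library and 427 in the PBS library (log2 ratio -1.26), with a counting interval that excluded equal levels. Hey2, a Notch target, had 37 and 20 (1.00, 0.18 to 1.87), just at the size set.

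**Figure D5:**
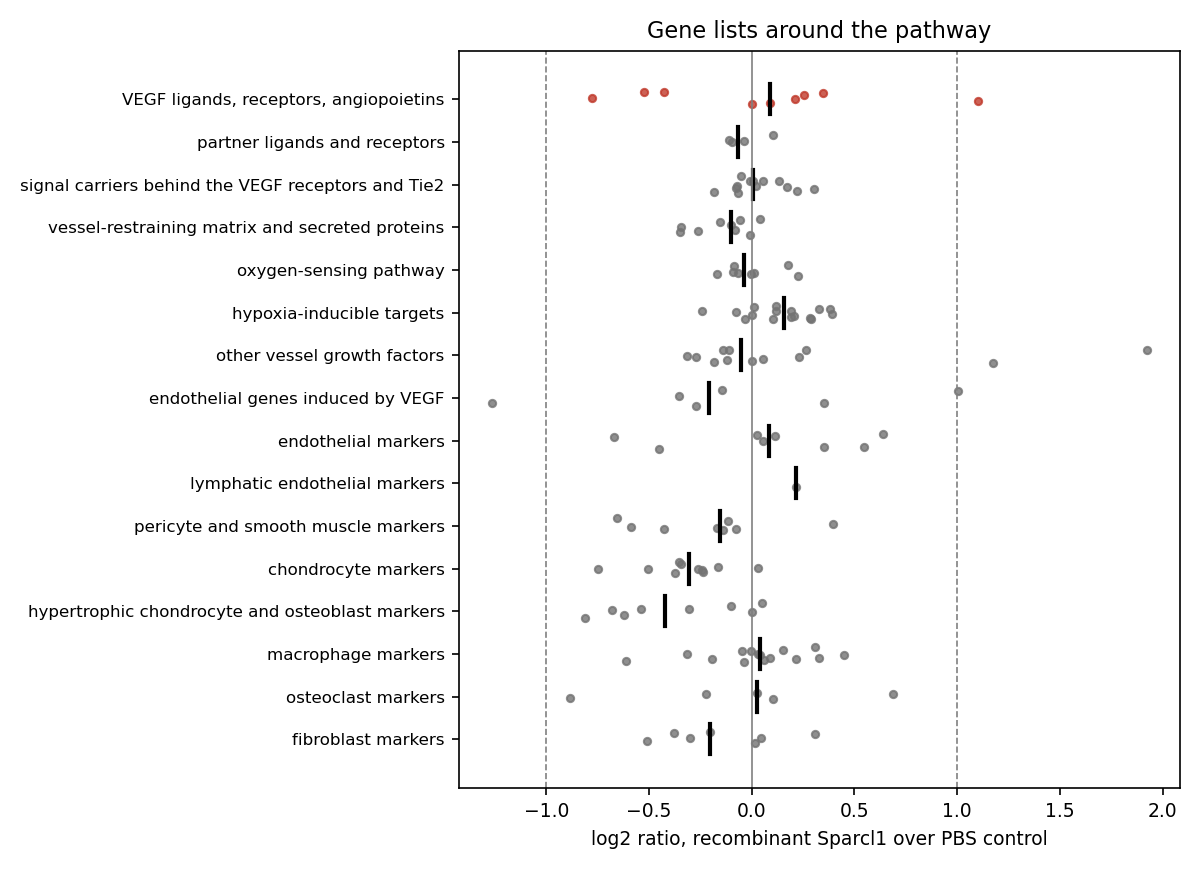
Log2 ratio, recombinant Sparcl1 over PBS control, of each gene with at least 20 summed counts, by list; black ticks mark list medians, dashed lines 2-fold, and points are spread vertically for sight. Medians of the pathway lists lie between -0.21 and 0.16, and the points beyond the dashed lines are Flt4, Fgf1, Angptl4, Hey2 and Egr3.

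Several defining markers of endothelial cells, the usual site of Flt4, Kdr and Tek, had few counts. Pecam1 had 7 counts in the Sparcl1 library and 12 in the PBS library, Cdh5 had 5 and 3, Cldn5 had 0 and 1, and Sox17 was at 0 in both. The 17 endothelial markers summed to 164 CPM in the Sparcl1 library and 160 in the PBS library, most of it Eng (3915 and 4092 counts), which other cells also make. Vwf had 84 and 145 counts (log2 ratio -0.67) and Erg 271 and 272 (0.11). Of the 17 markers 8 had at least 20 summed counts, 6 of them with ratios above 1, against 6608 of all 13317 genes. Of the 5 lymphatic markers, Ccl21a and Mmrn1 had 0 counts in both libraries, Pdpn was listed at 0 in both, Lyve1 had 4 counts in the Sparcl1 library and 0 in the PBS library, and Prox1, the lymphatic master factor, had 15 and 14. Pdpn is also known from cells of the fibroblast and bone lineages, and whether it was counted at all in the table is not known, so its 0 is not read as a level.

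Markers of other cell types that the cultures could hold were set beside those of chondrocytes. All 10 chondrocyte markers, the labelled cell type, were detected and summed to 12169 CPM in the Sparcl1 library and 13902 in the PBS library. Col2a1 was at a log2 ratio of -0.24, Acan at -0.50 and Matn3 at -0.75. Comp, at 0.03, was the 1 of the 10 with a ratio above 1. Markers of hypertrophic chondrocytes and osteoblasts, cells known to make Vegfa, summed to 531 CPM in the Sparcl1 library and 607 in the PBS library. Mmp13 alone gave 314 CPM in the Sparcl1 library and 313 in the PBS library (log2 ratio 0.0040). Panx3 was at -0.68, Ibsp at -0.62 and Col10a1 at 0.05, and Ihh had 3 counts in the Sparcl1 library and 1 in the PBS library. Pericyte and smooth muscle markers, whose cells are a known source of Angpt1, summed to 993 CPM in the Sparcl1 library and 1337 in the PBS library. Acta2 alone gave 529 and 832 CPM (log2 ratio -0.65). Notch3 was at 0.40, Myh11 had 14 and 16 counts, and Kcnj8 had 0 counts in both. Of 8 ratios 7 were below 1, against 6709 of all 13317 genes. Ratios below 1 were also common among chondrocyte markers (9 of 10) and markers of hypertrophic chondrocytes and osteoblasts (6 of 8). Fibroblast markers summed to 16678 and 20413 CPM, with Postn at -0.51 and Pdgfra at 0.31. Macrophage markers summed to 2811 CPM in the Sparcl1 library and 2482 in the PBS library, and none of the 15 was at 0. Itgam was at 0.45, Lyz2 at 0.31 and Fcgr1 at -0.61, with 9 ratios above 1 and 6 below. Osteoclast markers summed to 91.3 CPM in the Sparcl1 library and 89.2 in the PBS library, of which Ctsk alone gave 82.2 and 80.7. Acp5 had 57 counts in the Sparcl1 library and 72 in the PBS library, Oscar 9 and 18, Ocstamp 12 and 7, and Calcr 0 in both. None of these markers passed the rule of size. The part of these cell types in the values of Flt4, Angpt1 and Vegfa was not tested.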

How the data were processed

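The authors deposited raw read counts by gene symbol for 1 Sparcl1 and 1 PBS library. STAR, HTSeq, FastQC and Trimmomatic are named, with the build mm10, in the submitters' processing notes. Versions, annotation, strand setting and the handling of reads with several matches are not given in the sources used here. The members and lists were chosen with earlier results of these data known, and the 11 pairs of genes whose ratios were compared, and the range of 200 to 400 summed counts, were chosen after their counts had been seen.

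Counts were scaled with TMM factors (edgeR 4.0.16, R 4.3.3) and handled in Python 3.11.15 with scipy 1.17.1. Library totals were 26871933 (Sparcl1) and 29858851 (PBS), so precision follows each gene's counts. Each log2 ratio, Sparcl1 over PBS, has an exact 95% Clopper-Pearson interval on the Sparcl1 library's part of the summed counts. Differences between genes have exact conditional intervals of the odds ratio. Intervals and floors cover counting error only, and reads amplified by PCR are not independent molecules. With 1 library per group no test and no p-value exist. A count of 0 entered ratios as 3 counts where the other library had more than 3. Genes of the pathway lists were named when past the rule of size. Where none passed, those with the highest and lowest ratio at 100 or more summed counts and the 2 most abundant were named. Markers of cell types did not all follow this rule, so those named are not always the ends of their lists. Other genes were named after their values were seen. Of 156 list entries in 15 lists all were in the table, 2 by an older symbol. Lengths and coordinates come from GENCODE M21 for 21900 genes. In 26 rows the symbol had become a date; they stayed in the totals. The steps were checked on simulated data. Scaling was also done by upper-quartile factors, by total counts and by size factors of DESeq2 1.42.0; further alternatives were other sizes and count minimums, a prior count of 2 and the longest transcript as length. A comparison of protein sequences was planned and is not given here.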

Additional observations from a re-analysis of the deposited data

How the results depend on the processing

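Flt4 was higher by the rule of size under total counts, DESeq2 size factors and upper-quartile factors, with log2 ratios of 1.14, 1.10 and 1.10, at 1.5-fold, and with no count minimum or one of 100. At 3-fold the number of higher members was 0. Scaling shifted the members' log2 ratios by -0.0034 to 0.03, and all 40 alternative values lay within the counting intervals. Flt1 was the 1 member whose ratio changed sign with the scaling, at -0.00070 with DESeq2 size factors and -0.0017 with upper-quartile factors. Over all genes, 309 were higher and 313 lower at 1.5-fold, 44 and 36 at 3-fold, and 20 and 38 with at least 100 summed counts, against 127 and 126. With total counts the median log2 ratio was -0.068 for vessel-restraining genes and -0.17 for fibroblast markers. With at least 100 summed counts, 1 of the other vessel growth factors (Angptl4) and 1 of the endothelial genes induced by VEGF (Egr3) passed, since Fgf1 and Hey2 had fewer counts. Levels per kilobase moved with the choice of length, most for Flt1, to 0.128, and for Kdr, to 0.269. No paired analysis was possible because each group has 1 library, and no replicate could be left out. Depth limits Pgf, Flt1, Kdr, Angpt2 and Tek, whose intervals all include a ratio of 1. The interval of Vegfc, with 602 summed counts, also includes it but is narrower, from 0.903 to 1.25.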
